A study of Mus musculus with 8 samples.

Results

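Chemokines are small secreted proteins that direct the movement of leukocytes and some other cells. They are grouped by the spacing of their first cysteines into CC, CXC, CX3C and XC ligands, and most bind receptors that signal through G proteins of the Gi class. Atypical receptors bind chemokines without that signal and remove or store them. In the ovary, chemokines are known for recruiting leukocytes around ovulation and for shaping the stroma and the immune cell content of ovarian tumours.

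The genes described here are the chemokine ligands and receptors of the mouse that the array measures under a RefSeq accession with a symbol of the families Ccl, Cxcl, Ccr and Cxcr, together with Cx3cl1, Cx3cr1, Xcl1, Xcr1, Ppbp, Pf4 and the atypical receptors Ackr1 to Ackr3. That rule gave 56 genes of the 20145 with a symbol, namely 35 ligands and 21 receptors, measured by 67 of 55681 probes. The rule used names only and no measured value, though the members were chosen with earlier results of these data known. A single probe covered 47 of the genes, and 9 genes had several.

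The arrays hold 3 samples of ovary from wildtype mice and 5 samples of ovarian neoplasia, all from cycling mice of 33 weeks. The neoplasia mice are written Pgrcre/+mPgrLsL/+ in the sample labels and Pgrcre/+PgrBLsL/+ in the series text. Cre is thus driven from the progesterone receptor locus and acts in cells that use that locus, while the wildtype mice carry neither allele, so the cre allele and the LsL allele cannot be told apart in this comparison. RNA came from whole ovary, and no label gives the day of the cycle, the histology of the neoplasia or whether each array is a separate animal. The p-values therefore measure the spread between these samples. In bulk RNA of this kind, fewer cells of a type and less RNA per cell cannot be told apart.

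The targeted gene, the progesterone receptor Pgr, was measured by a pair of probes that went opposite ways. Probe A_51_P213476 rose by 9.13 ± 0.73 (SE) on the log2 scale (limma over all probes, adjusted p = 0.000131), and A_55_P2095663 fell by 3.71 ± 0.58 (adjusted p = 0.00336). Between 29332 and 34147 of the 55681 probes were well above background on an array. The unscaled 75th percentile signal was 460.2 to 515.2 in wildtype and 306.9 to 426.2 in neoplasia. The arrays lie on 1 slide, with neoplasia 1 to 4 in the first row and neoplasia 5 in the second row with the 3 wildtype arrays. A difference within a slide row therefore rests on neoplasia 5 alone. For the second row by itself only its size is given below, since 1 neoplasia array shows no spread in its group.

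Ovarian marker genes, from lists chosen with earlier results of these data known, differed between the groups. All 8 oocyte markers fell and 6 of 8 granulosa markers fell. Their summed level was 29.1 to 38.0 in wildtype and 0.263 to 0.537 in neoplasia for oocyte, and 153.4 to 214.8 against 43.0 to 72.8 for granulosa, in multiples of the array's 75th percentile signal. Neutrophil, monocyte and macrophage, erythrocyte and epithelial sums were higher on every neoplasia array than on any wildtype array. The same held, by less, for T cell, natural killer, dendritic cell and endothelial sums. The 75th percentile signal that scales these sums was lower on every neoplasia array. Such sums weigh the brightest genes most. Of 7 epithelial markers tested 2 rose and 2 fell (median change -0.13), and of 13 neutrophil markers 7 rose and 1 fell. The part of these markers in the chemokine values was not tested.

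Levels below are log2 of the processed signal relative to the array's 75th percentile, so that 0 is the level of that percentile. A change is the neoplasia mean minus the wildtype mean on that scale, and a gene was called higher or lower where limma gave an adjusted p under 0.05 over all 25169 features tested. Over all of them 30.4% were called, 17.0% higher and 13.4% lower, and the median change was 0.14. The higher share of the calls, 56.0% here, was 15.2% when the arrays were scaled by spike-in control probes and 19.9% on the authors' deposited values. Spike-in scaling used 6 of 10 control probes. Their mean log2 signal was 8.05 on neoplasia 1 and 9.13 to 9.84 on the other arrays, so this scaling shifts neoplasia 1 apart from the rest of its group.

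Of the 56 genes, 42 were well above background on at least 3 arrays and were tested, 28 ligands and 14 receptors. Among these, 14 were called higher (33.3%) and 2 lower (4.76%), and their median change was 1.18. Of the ligands 11 rose and 1 fell, and of the receptors 3 rose and 1 fell. In 19 of the 42 (45.2%) the groups did not overlap, against 39.1% of all features. A low gene could enter the test through the group in which it was bright. Ppbp, Ccl1 and Ccl28 entered only in that way, so their p-values are not separate from the filter. Among the 27 genes above background on all 8 arrays, 11 rose (40.7%). Over all features of that kind 31.0% were called and 21.2% rose. Leaving out wildtype 1, 2 or 3 gave 7, 6 and 6 ligands higher. With the slide row as a block 5 ligands were called higher, and the calls of Cxcl9, Ccl1, Ccl3, Ccl4, Ccl12, Ccl17, Ccl28, Ccr8, Ccr10 and Cxcr4 were lost; that fit rests on neoplasia 5 against wildtype.

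**Figure D1:**
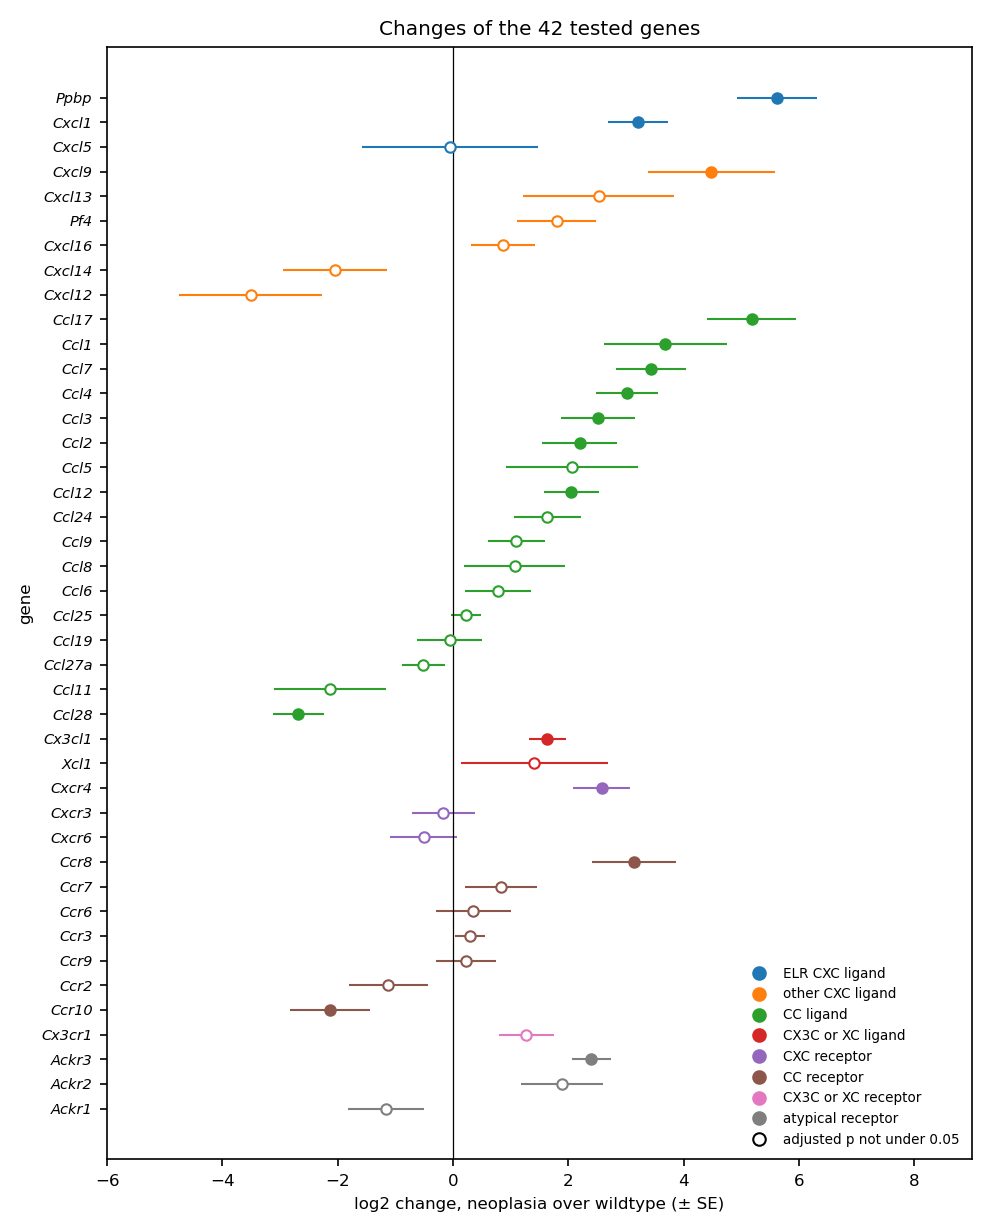
Log2 change of the 42 tested chemokine and receptor genes, neoplasia over wildtype, with standard errors, ordered by role; filled points passed an adjusted p of 0.05. The called genes reach from 1.64 (Cx3cl1) to 5.62 (Ppbp) above wildtype, and the 2 that fell, Ccl28 and Ccr10, lie at -2.68 and -2.13.

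The promoters of the 4 risen ligands with the largest change are shown first, chosen by size of change alone. Each is the RefSeq sequence of GRCm38.p6 for the 250 bases before the annotated start, written 5' to 3' on the gene's strand. Capitals mark matches to any of 6 motifs searched on both strands: the kappaB consensus of NF-kappaB (10 letters, some degenerate), the AP-1 site TGANTCA, the STAT sites in which TTC and GAA stand 3 or 4 bases apart, the interferon-stimulated element with 2 copies of GAAA spaced by 2 bases, and the progesterone response element with GNACA and TGTNC spaced by 3 bases. Overlapping matches were each counted.
Ppbp, chr5:90768268-90768517, plus strand: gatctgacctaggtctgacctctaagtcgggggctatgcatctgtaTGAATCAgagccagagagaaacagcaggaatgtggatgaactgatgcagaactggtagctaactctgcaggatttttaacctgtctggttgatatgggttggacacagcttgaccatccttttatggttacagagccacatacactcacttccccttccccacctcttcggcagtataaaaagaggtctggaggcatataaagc
Ccl17, chr8:94810203-94810452, plus strand: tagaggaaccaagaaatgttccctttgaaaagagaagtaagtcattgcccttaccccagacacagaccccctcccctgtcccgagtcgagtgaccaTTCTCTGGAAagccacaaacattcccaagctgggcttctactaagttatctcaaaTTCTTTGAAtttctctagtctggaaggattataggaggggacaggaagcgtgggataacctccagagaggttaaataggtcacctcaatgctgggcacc
Cxcl9, chr5:92328080-92328329, minus strand: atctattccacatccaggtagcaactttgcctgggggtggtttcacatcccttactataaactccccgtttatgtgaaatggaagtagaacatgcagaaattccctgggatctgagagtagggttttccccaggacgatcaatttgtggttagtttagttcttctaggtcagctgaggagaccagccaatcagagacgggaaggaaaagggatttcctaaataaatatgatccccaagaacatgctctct
Ccl1, chr11:82179813-82180062, minus strand: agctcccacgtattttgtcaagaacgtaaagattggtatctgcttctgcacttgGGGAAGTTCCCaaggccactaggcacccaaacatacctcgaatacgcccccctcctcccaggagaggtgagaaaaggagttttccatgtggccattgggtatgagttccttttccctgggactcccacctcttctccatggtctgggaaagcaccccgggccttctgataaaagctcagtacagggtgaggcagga

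In the Ppbp window the match was TGAATCA, 204 to 198 bases before the start. The Ccl17 window held TTCTTTGAA, 99 to 91 bases before the start, and TTCTCTGGAA, 154 to 145 before it. In the Ccl1 window a pair of overlapping kappaB matches, GGGAAGTTCC and GGAAGTTCCC, covered bases 196 to 186 before the start. None of the motifs matched in the Cxcl9 window, which says only that these letters are not there. The table held promoters of 43 of the 56 genes and 8 of the 11 risen ligands. A kappaB match stood in 10 of those 43 genes and in 8.23% of all 27025 genes with a promoter, and among the 8 risen ligands in Ccl1 and Cxcl1. The other shares over all genes were 7.82% for AP-1 (5 of 43), 8.13% and 6.76% for the STAT spacings (4 and 1 of 43), 3.46% for the interferon-stimulated element (2 of 43) and 0.44% for the progesterone response element (0 of 43). A match is a description of the letters and was not tied to the change of a gene.

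The ligands with the ELR motif, which attract neutrophils through Cxcr2, held 2 of the risen genes. Ppbp, the precursor of a neutrophil-activating peptide of platelets, was at -7.08, -6.17 and -5.96 in wildtype 1 to 3 and at -0.60, -2.40, -0.71, -1.29 and 1.11 in neoplasia 1 to 5. It was not well above background on any wildtype array and was above it on all 5 neoplasia arrays, so it was at least 24.5-fold higher (fitted change 5.62 ± 0.69, limma adjusted p = 0.00122). Neoplasia 5 was highest, 7.51 above the wildtype mean.

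Cxcl1, an epithelial and stromal neutrophil attractant, stood at -3.11, -3.45 and -2.85 in wildtype and at -0.31, -0.29, -1.101, 0.65 and 1.39 in neoplasia. Every neoplasia array lay above every wildtype array. Its change was 3.20 ± 0.52, a 9.21-fold rise (adjusted p = 0.00419), and neoplasia 5 lay 4.53 above the wildtype mean. The calls of Ppbp and Cxcl1 held in every alternative in which each could be tested.

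Other ELR ligands did not pass. Cxcl5, singled out after its values were seen, reached 0.13 on neoplasia 5 and lay between -7.10 and -4.04 on the other neoplasia arrays, against -5.60 to -3.33 in wildtype (change -0.06 ± 1.52, adjusted p = 0.98). Neoplasia 5 alone lay 4.54 above the wildtype mean, and without it the change was -1.20 (limma adjusted p = 0.306). Cxcl2, Cxcl3 and Cxcl15 were above background on neoplasia 5 only, at -2.55, -3.18 and -4.04, and were not tested. Cxcr2, paired here with Cxcl1, Cxcl2, Cxcl3, Cxcl5 and Ppbp, was not above background in wildtype, at -5.49, -5.91 and -6.17. In neoplasia it was at -4.25, -4.72, -3.79, -4.22 and -2.99, above background on 2 arrays. With wildtype set at the lowest signal well above background, its neoplasia mean was 2.64-fold higher, with no test. That mean includes arrays not above background, so it gives no strict bound. The related receptor Cxcr1 was above background on neoplasia 5 only, at -3.31.

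Of 13 neutrophil markers tested, 7 rose and 1 fell, with a summed level of 108.8 to 129.6 in wildtype and 519.8 to 1617 in neoplasia. The lowest neoplasia sum was that of neoplasia 5, the array with the highest Ppbp and Cxcl1. The epithelial sum was also lowest there among the neoplasia arrays, at 175.1. The neutrophil receptors Cxcr2 and Cxcr1 were highest there, at -2.99 and -3.31. How these values relate was not tested. The largest rises were Lcn2 (8.99) and S100a9 (3.92), and Ltf fell by 4.87; Lcn2 and Ltf are also made by epithelium. The S100a9 call was lost without wildtype 2 or 3, and the Ltf call without wildtype 1 or 2 or neoplasia 1. Platelet markers differed less, with 1 of 5 tested, Gp9, called higher (at least 15.7-fold) and sums of 4.62 to 10.2 against 2.02 to 14.8. Their part in the Ppbp value was not tested.

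Pf4, platelet factor 4, which macrophages of some tissues also make, was at 1.24 to 1.71 in wildtype and at 1.97 to 4.97 in neoplasia without overlap, but its change of 1.80 ± 0.69 missed the threshold (adjusted p = 0.078). Within the second slide row neoplasia 5 lay 3.49 above wildtype, and leaving out neoplasia 2 gave 2.11 (limma adjusted p = 0.0474).

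**Figure D2:**
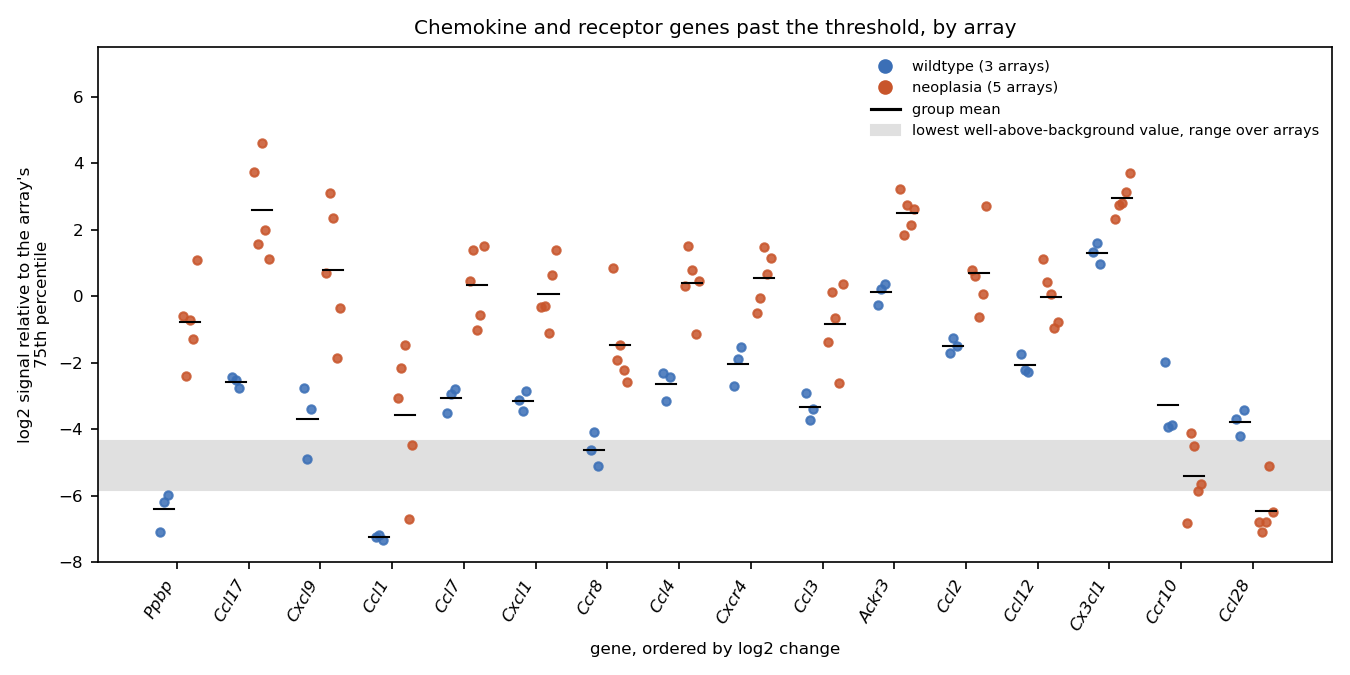
Relative level (log2, 0 is the array's 75th percentile) of the 16 called genes on each of the 3 wildtype and 5 neoplasia arrays, with the group mean. Each of the 14 risen genes has all neoplasia points above all wildtype points.

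Among the other CXC ligands, Cxcl9, an interferon-gamma induced ligand of Cxcr3 that attracts activated T cells, rose most. Its values were -2.76, -4.90 and -3.38 in wildtype, above background on 2 of 3 arrays, and 0.71, 3.12, 2.36, -1.86 and -0.34 in neoplasia. Neoplasia 2 and 3 were highest and neoplasia 4 lowest, all above wildtype. The change was 4.48 ± 1.0996 (adjusted p = 0.0200), and its second probe gave 3.59 (adjusted p = 0.0313 over all probes). The call was lost when any wildtype array was left out (limma adjusted p 0.0513 to 0.0822). On neoplasia 5 the level was 3.34 above the wildtype mean. Cxcr3 was at -0.49, -1.36 and -1.62 in wildtype and -1.25, 0.20, -1.88, -2.37 and -1.31 in neoplasia (change -0.17 ± 0.55, adjusted p = 0.835; 0.17 without wildtype 1 and 0.094 without neoplasia 4). Neoplasia 2 held the highest value of both Cxcl9 and Cxcr3 among the neoplasia arrays.

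The T cell marker sum was 4.21 to 5.93 in wildtype and 7.72, 21.5, 17.3, 6.31 and 6.42 in neoplasia 1 to 5. Neoplasia 2 and 3 were highest there also. Of 12 tested T cell markers 3 rose (25.0%, against 30.4% called over all features), Zap70 by 2.30, Cd4 by 1.20 and Cd3e by 1.01. Each of these calls was lost when any 1 wildtype array was left out. The natural killer sum was 1.39 to 1.87 against 1.94 to 9.13, with Eomes of 7 tested called higher (a call lost without wildtype 2), and Ncr1, a defining marker, was not above background on any array. Their part in the Cxcl9 value was not tested. Cxcl13, a B cell attractant through Cxcr5, missed the threshold at 2.53 ± 1.31 (adjusted p = 0.169), with its highest value, 1.60, on neoplasia 3, and its receptor Cxcr5 was above background on neoplasia 2 and 3 only and was not tested. Of 7 tested B and plasma cell markers 3 fell, the largest falls being Jchain at -4.50, Mzb1 at -2.22 and Cd79a at -1.18, with a summed level of 2.06 to 7.84 in wildtype and 1.04 to 2.52 in neoplasia. Each of these calls was lost without wildtype 1 or wildtype 2.

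Cxcl12, a stromal ligand that retains leukocytes and progenitor cells, was high in all wildtype ovaries at 3.64, 2.70 and 3.44. In neoplasia 1 to 4 it was at -2.38, -1.46, -0.55 and -0.70, and in neoplasia 5 at 3.84. The 4 low arrays lay below every wildtype array and neoplasia 5 lay above them all. Across all arrays the change was -3.51 ± 1.23 and missed the threshold (adjusted p = 0.0612). With every array kept it passed under spike-in scaling (-4.12, adjusted p = 0.00213), on the authors' deposited values (-3.99, 0.044) and with array weights (-4.09, 0.0015). Without neoplasia 5 it was -4.53 (limma adjusted p = 0.000747). Neoplasia 5 alone, the only neoplasia array in the slide row of the wildtype samples, gave 0.58 higher. Slide row and group cannot be told apart for the low values. A second probe, under another accession, gave 1.13, 1.16 and 0.78 in wildtype and -6.83, -4.09, -2.72, -3.60 and 1.16 in neoplasia, with the same 4 arrays low (change -4.24, adjusted p = 0.0588).

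The receptors of Cxcl12 both rose. Cxcr4, its signalling receptor, was at -2.68, -1.87 and -1.51 in wildtype and -0.50, -0.04, 1.48, 0.69 and 1.15 in neoplasia (change 2.58 ± 0.49, adjusted p = 0.00769). Ackr3, which takes up Cxcl12 without G protein signalling, was at -0.25, 0.23 and 0.37 in wildtype and 3.22, 1.84, 2.75, 2.15 and 2.63 in neoplasia (2.40 ± 0.33, adjusted p = 0.00204). For each, every neoplasia array lay above every wildtype array, neoplasia 5 included, at 3.17 above the wildtype mean for Cxcr4 and 2.51 for Ackr3. The call of Ackr3 held in every alternative run, and that of Cxcr4 was lost with the slide row as a block (adjusted p = 0.059).

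The fibroblast markers were likewise low on neoplasia 1 to 4 and high on neoplasia 5. Their summed level was 248.5 to 328.1 in wildtype, 27.1, 29.7, 26.9 and 122.1 in neoplasia 1 to 4, and 546.9 in neoplasia 5. Of the 7 markers 0 passed limma's threshold, 2 had an unadjusted p under 0.05, and the median change was -2.20. Cxcl14, a ligand of stroma and epithelium singled out after its values were seen, was at 2.99, 2.71 and 3.89 in wildtype and -1.20, 1.86, 0.09, 1.79 and 3.19 in neoplasia (change -2.05 ± 0.91, adjusted p = 0.115; without neoplasia 5 it was -2.56, adjusted p = 0.0366, and under spike-in scaling -2.66, adjusted p = 0.00873). Neoplasia 5 alone lay within 0.01 of the wildtype mean for Cxcl14. The part of the fibroblast markers in these values was not tested.

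**Figure D3:**
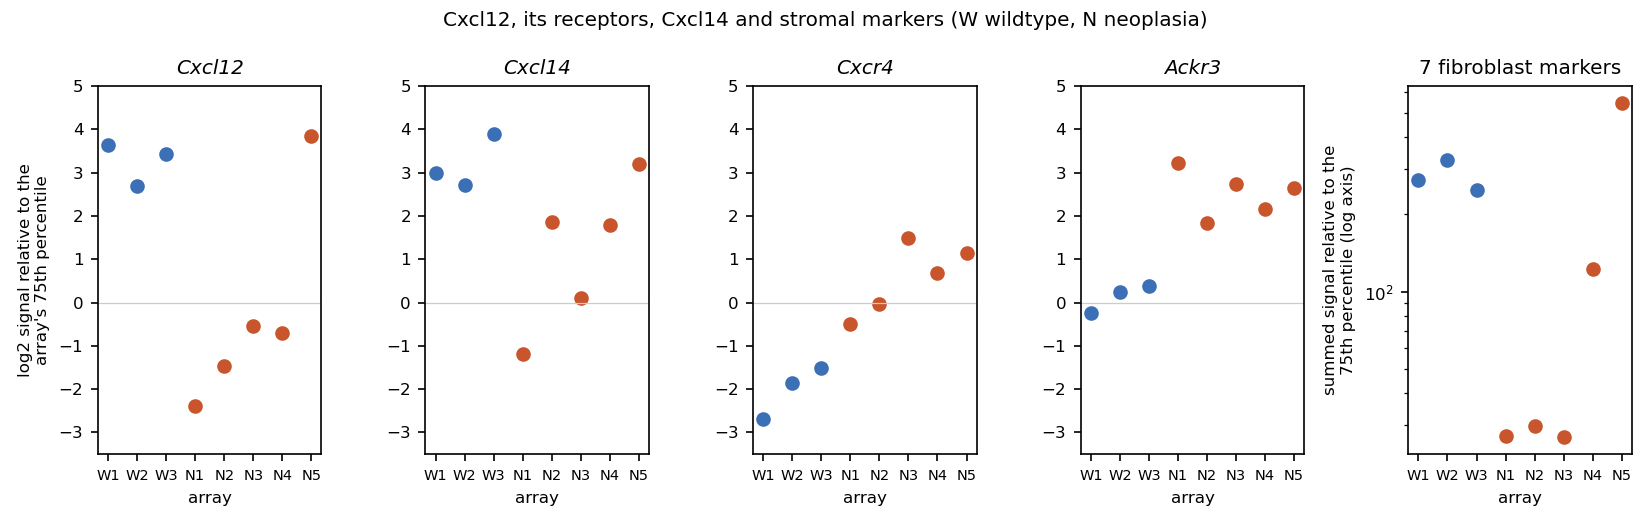
Levels (log2, 0 is the array's 75th percentile) of Cxcl12, Cxcl14 and the receptors Cxcr4 and Ackr3, and the summed fibroblast marker level (log axis) on each array. Cxcl12 is below wildtype on neoplasia 1 to 4 and above it on neoplasia 5, at 3.84, where the fibroblast sum also is highest at 546.9, while Cxcr4 and Ackr3 are above wildtype on all 5.

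CC ligands held 7 of the 11 risen ligands, and 17 of the 28 tested ligands. Ccl17, a ligand of Ccr4 made by dendritic cells and some epithelial and stromal cells, was at -2.43, -2.52 and -2.75 in wildtype and 3.75, 1.58, 4.60, 2.001 and 1.13 in neoplasia. The lowest neoplasia array, neoplasia 5, was still 3.70 above the wildtype mean. The change was 5.18 ± 0.77, or 36.3-fold (adjusted p = 0.00281). With the slide row as a block the adjusted p was 0.0968. Its receptor Ccr4 was above background on neoplasia 1 only, at -3.64, and Ccl22, the other Ccr4 ligand, was not above background on any array. Dendritic cell sums were 92.6 to 98.8 in wildtype and 111.6 to 119.2 in neoplasia. The percentile signal that scales these sums was lower on every neoplasia array, and its part in this difference was not tested. Of 7 dendritic cell markers tested 1 rose and 1 fell (28.6% called, against 30.4% over all features, median change 0.18). Itgax rose by 2.47, and Cd209a fell (at least 5.26-fold lower).

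A group of monocyte attractants that signal through Ccr2 rose together. Ccl7 was at -3.51, -2.93 and -2.77 in wildtype and 0.45, 1.39, -1.02, -0.55 and 1.51 in neoplasia (3.43 ± 0.61, adjusted p = 0.00573), and its call held in every alternative run. Ccl12 was at -1.73, -2.22 and -2.26 against 1.13, 0.43, 0.07, -0.96 and -0.79 (2.05 ± 0.48, adjusted p = 0.0163). Ccl2 was at -1.71, -1.25 and -1.48 against 0.79, 0.61, -0.62, 0.06 and 2.73 (2.19 ± 0.66, adjusted p = 0.0374). The groups did not overlap for any of them. Within the second slide row, neoplasia 5 lay 4.58 above wildtype for Ccl7, 1.29 for Ccl12 and 4.21 for Ccl2. The Ccl12 call was lost without wildtype 2 or 3 (largest adjusted p 0.0651), and the Ccl2 call without any 1 wildtype array or neoplasia 1, 2 or 4 (largest 0.124). Scaling by spike-in probes ended both (adjusted p = 0.158 and 0.108).

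Ccr2, their receptor on monocytes, did not rise with its ligands. It was at -1.74, -1.57 and -3.23 in wildtype and -2.89, -1.61, -3.83, -4.77 and -3.40 in neoplasia, where the groups overlapped (change -1.12 ± 0.69, adjusted p = 0.239). Ccl8, a ligand of Ccr8 in the mouse from the same gene cluster, was at 1.36, 1.83 and -0.40 against 1.42, 4.40, 0.93, 0.79 and 2.47 (1.07 ± 0.88, adjusted p = 0.371).

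Ccl3 and Ccl4, attractants of macrophages and T cells, also rose. Ccl4 was at -2.30, -3.15 and -2.42 in wildtype and 0.32, 1.51, 0.79, -1.12 and 0.47 in neoplasia (3.02 ± 0.54, adjusted p = 0.00583). Ccl3, a ligand of Ccr1, was at -2.92, -3.71 and -3.38 against -1.36, 0.13, -0.66, -2.61 and 0.38 (2.51 ± 0.65, adjusted p = 0.0233). Neoplasia 4 was lowest of the neoplasia arrays for both and was above every wildtype array. The Ccl3 call was lost without any 1 wildtype array (largest adjusted p 0.087), and both were lost with the slide row as a block (0.0943 for Ccl4 and 0.0621 for Ccl3), although neoplasia 5 lay 3.09 and 3.72 above the wildtype mean. Ccl5, a product of T and natural killer cells, missed the threshold at 2.06 ± 1.14 (adjusted p = 0.194), with 5.29 on neoplasia 2 and -0.69 on neoplasia 4; without neoplasia 4 it was 2.84 (adjusted p = 0.0487). Ccr1 was not above background on any array.

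Ccl1 and its receptor Ccr8, which is found on regulatory and type 2 helper T cells, both rose. Ccl1 was at -7.24, -7.17 and -7.33 in wildtype, not above background, and at -3.05, -2.14, -1.47, -6.70 and -4.47 in neoplasia, above it on 3 of 5 arrays. With wildtype set at the lowest signal well above background, its neoplasia mean was 3.56-fold higher (fitted change 3.68 ± 1.06, limma adjusted p = 0.0333). That mean includes arrays not above background, so it gives no strict bound. Ccr8 was at -4.63, -4.09 and -5.10 in wildtype and 0.87, -1.92, -1.45, -2.22 and -2.58 in neoplasia (3.15 ± 0.73, adjusted p = 0.0162), with neoplasia 1 highest. The second Ccr8 probe was not above background on any array and gives no check of it. The Ccl1 call was lost without any 1 wildtype array or neoplasia 1, 2 or 3 (largest adjusted p 0.104), and that of Ccr8 without wildtype 1 or 3 (0.0636 and 0.0603). Within the second slide row, neoplasia 5 lay 2.78 above wildtype for Ccl1 and 2.02 for Ccr8.

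Ccl28, a mucosal epithelial ligand of Ccr10, fell. It was above background on all wildtype arrays, at -3.69, -4.19 and -3.43. The neoplasia arrays lay at -6.79, -7.08, -6.80, -5.09 and -6.50, none above background. It was thus at least 2.06-fold lower (fitted change -2.68 ± 0.45, limma adjusted p = 0.00455). Among ligands above background on all 8 arrays 0 were lower. Ccl28 entered the test only through wildtype, where it was bright, so its p-value is not separate from the filter. Its receptor Ccr10 was at -1.96, -3.94 and -3.86 in wildtype and -6.83, -4.11, -4.51, -5.85 and -5.64 in neoplasia, above background on 2 of the 5 (-2.13 ± 0.70, adjusted p = 0.0489). The Ccr10 call was lost in 16 of 22 alternatives, the leave-outs of each array but neoplasia 2 among them (adjusted p up to 0.186). Normexp background correction ended both calls (Ccl28 -0.21, adjusted p = 0.246; Ccr10 adjusted p = 0.433). Neoplasia 5 lay at -2.73 from the wildtype mean for Ccl28 and -2.38 for Ccr10. Ccl27a, the other Ccr10 ligand, was at 1.24, 1.92 and 1.73 against 0.85, 1.64, 1.66, 1.31 and 0.13 (-0.51 ± 0.38, adjusted p = 0.322), and its 3 probes gave -0.75, 0.25 and -0.51 with none called.

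Of the epithelial markers tested 2 rose and 2 fell, Krt8 by 4.01 and Krt18 by 3.52 among the rises and Epcam at -3.76 among the falls (a call lost without wildtype 1 or 2), with sums of 12.3 to 67.2 in wildtype and 175.1 to 770.8 in neoplasia. Their part in the Ccl28 value was not tested. Ccl24, an eosinophil attractant through Ccr3, was higher without overlap between the groups (-3.74 to -3.01 against -2.99 to -0.02) and missed the threshold at 1.63 ± 0.58 (adjusted p = 0.0628). It passed under quantile normalization (1.85, adjusted p = 0.0419) and without neoplasia 1 (1.22, 0.0494) or neoplasia 2 (1.96, 0.0261). The other uncalled CC ligands were Ccl5, Ccl6, Ccl8, Ccl9, Ccl11, Ccl19, Ccl25 and Ccl27a, with changes from -2.13 (Ccl11) to 2.06 (Ccl5). Ccl11, an eosinophil attractant, was at -2.81 without neoplasia 5 (limma adjusted p = 0.0166) and -2.74 under spike-in scaling (0.0257). Neoplasia 5 alone lay 0.58 above the wildtype mean for Ccl11.

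Cx3cl1, fractalkine, a membrane-bound ligand that endothelium and epithelium shed, was at 1.35, 1.62 and 0.96 in wildtype and 2.32, 2.76, 2.80, 3.13 and 3.72 in neoplasia. The change was 1.64 ± 0.33 (adjusted p = 0.00927), with neoplasia 5 highest, 2.41 above wildtype. Under spike-in scaling it was 1.03 (adjusted p = 0.155). Its receptor Cx3cr1, on monocytes and macrophages, was at 1.58, 0.88 and 1.58 against 2.49, 3.87, 2.84, 2.32 and 1.53 (1.27 ± 0.48, adjusted p = 0.0752), and neoplasia 5 lay among the wildtype values. Without it the change was 1.54 (adjusted p = 0.0227), and its second probe gave 1.31 over all arrays. Endothelial markers summed to 21.4 to 26.7 in wildtype and 33.3 to 76.1 in neoplasia. Of them 3 of 9 rose (33.3%, near the 30.4% called over all features). Monocyte and macrophage markers summed to 53.4 to 65.2 against 132.5 to 258.5, and 10 of 14 rose, Cd14 by 4.35, Msr1 by 2.32 and Fcer1g by 1.83; Cd163 was not above background on any array. Their part in these values was not tested. Xcl1 had the values -5.44 to -4.17 and -6.75 to -0.89 (change 1.41, adjusted p = 0.413), and its receptor Xcr1 was not above background.

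Among the remaining receptors the CC group (Ccr2, Ccr3, Ccr6, Ccr7 and Ccr9) had changes from -1.12 to 0.83, with no call by limma and an unadjusted p of 0.142 or more, and the CXC group held Cxcr3 and Cxcr6 at -0.17 and -0.51. Of the atypical receptors other than Ackr3, Ackr2, a scavenger of inflammatory CC chemokines, was higher without overlap, at -2.25 to -1.41 against -1.06 to 2.21 (1.89 ± 0.71, adjusted p = 0.0732). Neoplasia 5 alone lay 4.07 above the wildtype mean for Ackr2 (limma adjusted p = 0.00923 with the row as a block). Without that array the change was 1.34 (0.0272). Ackr1, which binds chemokines on venules and erythrocytes, was at -4.28 to -2.70 against -5.88 to -2.96 (-1.17 ± 0.66, adjusted p = 0.205). Without neoplasia 5 the change of Ackr1 was -1.61 (limma adjusted p = 0.0361), and neoplasia 5 alone lay 0.59 above the wildtype mean. Erythrocyte markers, for which all 5 tested rose, summed to 9.09 to 27.1 against 379.1 to 1726. Not tested were 14 genes. Ccl20, Ccl22, Ccl26, Ccr1, Ccr1l1 and Xcr1 were above background on no array, and Ccr4, Cxcl2, Cxcl3, Cxcl15, Cxcl17, Cxcr1, Cxcr2 and Cxcr5 on 1 or 2, with no value above -2.37. Cxcl17, an epithelial and mucosal ligand, was above background on 2 wildtype arrays and no neoplasia array.

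The neoplasia arrays differed from each other in which genes were highest. Neoplasia 5 was highest for 15 of the 42 tested genes, among them Cxcl1, Cxcl5, Ppbp, Pf4, Ccl2, Ccl3 and Ccl7 with Cxcl12 and Cxcl14. Neoplasia 2 was highest for 12, among them Cxcl9, Ccl4, Ccl5, Cxcr3, Cxcr6 and Ccr7. Neoplasia 4 was lowest for 17 and highest for 2. Of the 14 risen genes 6 were highest on neoplasia 5.

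**Figure D4:**
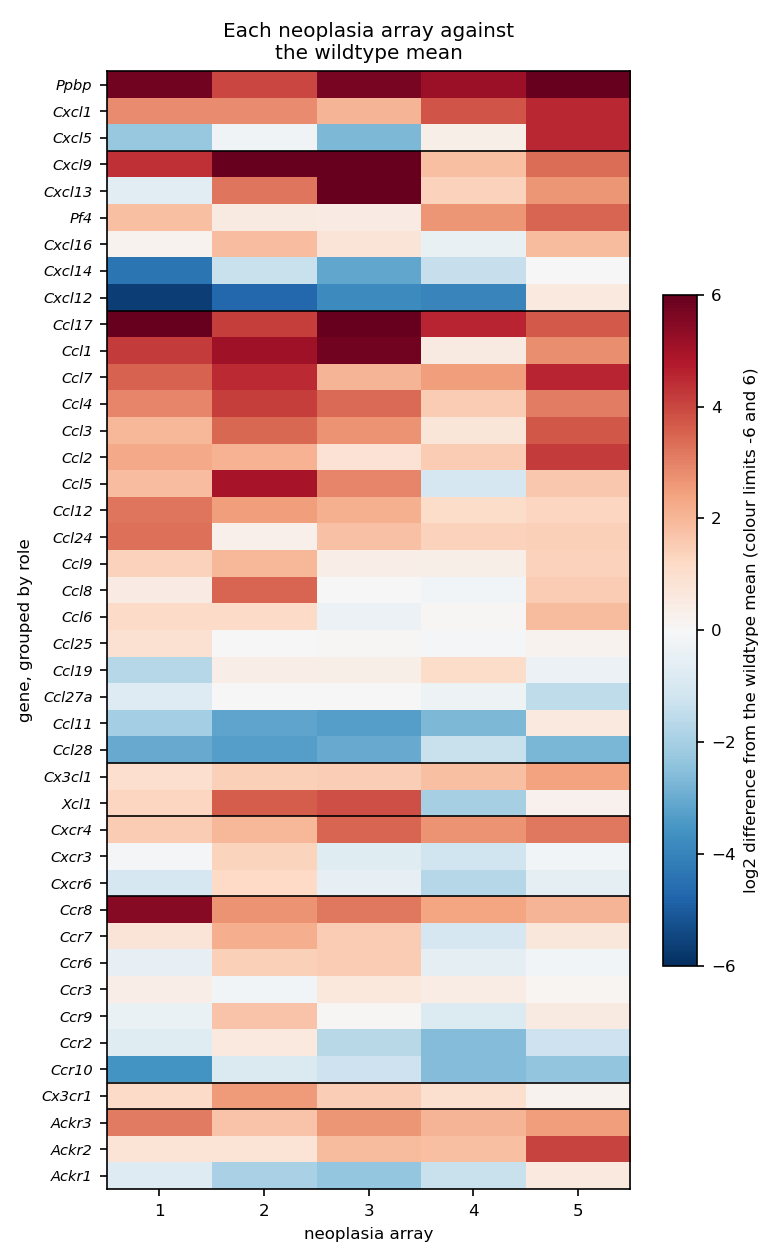
Level of each tested gene on each neoplasia array, relative to the wildtype mean (log2), in rows by role. Neoplasia 5 holds the highest value for 15 of the 42 genes and neoplasia 2 for 12, while neoplasia 4 holds the lowest for 17.

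Many of these genes lie beside each other in the RefSeq annotation, and the neighbours did not all move alike. On chromosome 11, Ccl2, Ccl7, Ccl12 and Ccl1 rose while Ccl11 and Ccl8, from the same run of 6, were not called (Ccl11 at -2.13). In a second run there, Ccl3 and Ccl4 rose, and Ccl5, Ccl9 and Ccl6 did not pass. On chromosome 5, Ppbp and Cxcl1 rose among 7 neighbours, of which 4 were tested. Ccl17 and Cx3cl1 are neighbours on chromosome 8 and both rose, while Ccl22 beside them was not above background. The receptor genes on chromosome 9, Ccr9 to Ccr2, had 4 tested, of which none passed limma's threshold and none had an unadjusted p under 0.05.

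**Figure D5:**
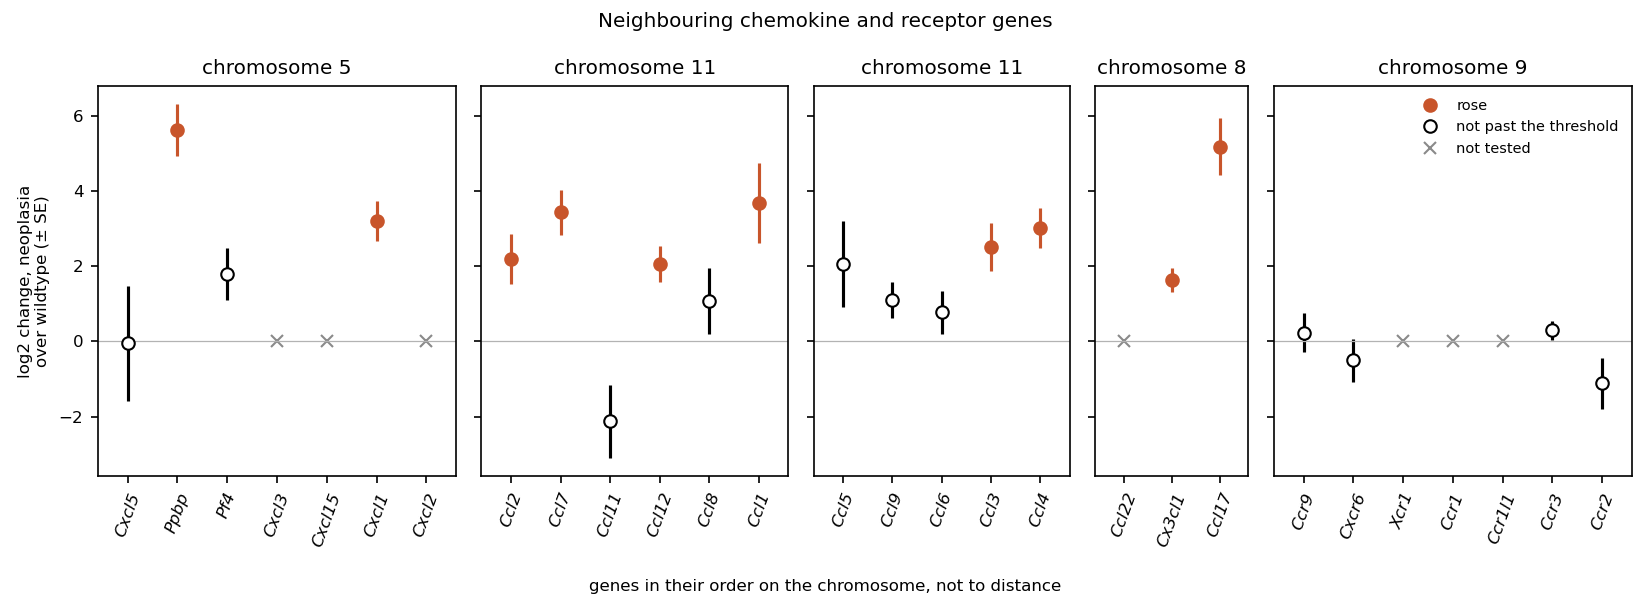
Log2 change with standard errors of neighbouring genes, in gene order and not to distance, with filled points for called genes and crosses for genes not tested. The runs on chromosomes 5, 8 and 11 hold risen genes, from Cx3cl1 at 1.64 to Ppbp at 5.62, and none of the 4 tested receptors on chromosome 9 passed.

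The genes around the pathway were taken from lists of named members, chosen with earlier results of these data known. Of the 4 lists together, 66 of 75 genes were tested, 29 rose and 2 fell (47.0% called, median change 1.08). Over all features 30.4% were called and the median change was 0.14. Scaling by spike-in probes left 5 risen and the authors' deposited values 14, while leaving out wildtype 1, 2 or 3 gave 15, 17 and 18. Signalling components of chemokine receptors, G proteins and their regulators, held 14 rises and 1 fall among 28 (53.6% called, median 0.80). Rgs1, Rgs16 and Rgs2, which shorten G protein signals, changed by 3.13, 2.002 and 1.87, and Rac1, a GTPase of cell movement, by 1.60. The call of Rgs16 was lost without wildtype 1, 2 or 3 or neoplasia 1, 3 or 4, that of Rgs2 without wildtype 1 or 3, and that of Rac1 without wildtype 1 or 2.

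Of the upstream cytokines that induce chemokines, 3 of 8 rose (37.5%, against 30.4% called over all features, median 1.52). Il1b, interleukin-1 beta, changed by 3.40 (adjusted p = 0.00154) and Tnf by 2.42 (adjusted p = 0.00961), where Tnf was not above background on any wildtype array and was at least 3.43-fold higher. Csf1, a growth factor of macrophages, changed by 0.98. Of 12 NF-kappaB feedback genes, which that pathway itself induces, 7 rose (58.3%, median 1.47). Among them were Tnfaip3 by 2.80, Birc3 by 1.73, Bcl3 by 1.70 and Nfkbiz by 1.60. Adhesion and trafficking genes had 5 rises and 1 fall among 18 (33.3% called, near the 30.4% over all features, median 0.40). Sdc4, a heparan sulfate proteoglycan that can hold chemokines, rose most, at 4.18. The integrins Itga4, Itgb2 and Itgal were at 1.71, 1.53 and 1.48, and the falling gene was Ccrl2 at -1.47. The integrin calls were each lost when any 1 wildtype array was left out.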

How the data were processed

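RNA was measured on 8 one-colour Agilent arrays. Per the file headers, spot intensity was extracted with Feature Extraction 11.0.1.1, background-subtracted and annotated on mm9. The deposited value table holds log2 values, and each of its 37932 entries equals, within 0.001, log2 of a feature's processed intensity averaged over its spots, so it was not scaled between arrays. Partek is named in the submitters' processing notes; its use is not given in the sources used here. For the values here, log2 of the processed intensity minus each array's 75th percentile was used. Spots with outlier flags were left out, and the brightest probe stood for a gene. Accessions were named from RefSeq (GRCm38.p6). The comparison used limma 3.58.1 under R 4.3.3 (lmFit and eBayes, two-sided, 6 residual degrees of freedom, Benjamini-Hochberg adjustment over 25169 features), a fit that was tested on simulated data. A gene not above background in a group has only a bound, from the lowest signal well above background. That bound is approximate, since a brighter probe can also fail that mark and the other group's mean includes its arrays not above background. Probe sequences were not used, so cross-hybridisation between near-identical copies such as Cxcl1, Cxcl2 and Cxcl3, or Ccl27a and its copies, was not checked.

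Genes named in full are all called members and the genes paired with them as ligand or receptor, then up to 4 changed genes per pathway list and up to 3 per marker list. Other members are given by range or count, and those named from them were chosen after their values were seen. The members, pairs and lists were chosen with earlier results of these data known. No protein sequence was used here. Some genes of these families are not reported here. The number of arrays limits the precision. Alternatives covered background correction, scaling, filters, probe choice, variance model, array weights, blocks, threshold and leaving out each array.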

Additional observations from a re-analysis of the deposited data

Results flagged for a closer look

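Rgs16, a regulator of G protein signalling, was at 1.84 on neoplasia 5, and the nearest of the other 4 neoplasia arrays was at -0.56. The gap was 0.913 of the group's range, above Dixon's critical value of 0.71 for 5 samples. Of 90 genes tested this way 1 had an array apart, and chance gives about 1 in 20.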

How the results depend on the processing

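The counts of called genes were 11 ligands higher and 1 lower, 3 receptors higher and 1 lower, and 29 pathway genes higher and 2 lower. For single settings only counts that moved beyond a preset factor are listed, and smaller moves are left out. Normexp correction (on median signals, since the files hold no mean signal) gave 0 ligands and 0 receptors lower and 1 pathway gene lower. Quantile normalization, no filter on dim probes and limma with trend and robust each gave 0 receptors lower. Spike-in scaling gave 4 ligands lower and 5 pathway genes higher, and it ended the calls of the risen ligands Ccl2, Ccl12 and Cx3cl1. The authors' deposited values gave 2 ligands lower and 14 pathway genes higher, and they ended the calls of the risen ligands Ccl1, Ccl2 and Ccl3. Testing only genes above background on all arrays gave 0 ligands and 0 receptors lower, with fewer genes tested. Without moderation 7 ligands were higher and 0 receptors lower. Array weights gave 4 ligands lower, 5 receptors higher, 3 receptors lower and 5 pathway genes lower. With the slide row as a block 5 ligands were higher, 0 lower, 0 receptors lower, and 10 pathway genes higher and 0 lower. The second row alone leaves 1 neoplasia array with no spread in its group, so its counts are left out. At a threshold of 0.01, 6 ligands were higher, 0 receptors lower, 15 pathway genes higher and 1 lower. Leaving out 1 array gave 6 to 11 ligands higher and 1 to 4 lower, 2 to 5 receptors higher and 0 to 1 lower, and 15 to 30 pathway genes higher and 1 to 4 lower. Except for the leave-outs, filters, threshold and rows, whose construction changes the samples or genes tested, the cause was not tested.

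The labels share replicate numbers 1 to 3 between the groups, but same-numbered arrays did not deviate together (correlations -0.046, -0.021 and -0.011). Arrays with different numbers gave -0.12 to 0.082. With so few arrays these correlations cannot exclude a pairing, and the main fit used none. The replicate block gave 3 ligands lower and 0 receptors lower, and 4704 called features in all against 7652. Among the genes named in full, directions reversed for Cxcl12 (0.58 with the slide row as a block and within the second row), for Cxcr3 (0.18 with the replicate block, 0.17 without wildtype 1 and 0.094 without neoplasia 4, within a range of -0.55 to 0.17 over the leave-outs) and for Cd79a (0.093 under normexp). Of the other members, 8 changed sign under 1 or more alternatives, none of them called over all arrays: Ackr1 (0.59) and Ccl11 (0.58) with the slide row as a block and within the second row, and Ccl19, Ccl25, Ccr3, Ccr6, Ccr9 and Cxcl5 under others. Over the 70 named genes that were tested, 1322 alternative values kept direction and call, 251 lost the call, 8 gained it and 6 reversed. Signal over background limits the dim genes.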
